A study of Mus musculus with 5 samples.

Results

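The immunity-related GTPases examined here are Irgm1, Irgm2, Igtp, Iigp1, Tgtp1 and Tgtp2, taken by mouse symbol, which are 6 of the 55573 genes in each count table. The libraries are bulk RNA from the right hemisphere of C57BL/6 female mice that received GL261 cells, a transplanted mouse glioma line carrying luciferase and mKate2, in the right caudate nucleus-putamen at 7 to 8 weeks of age. Mice with tumors of similar size by bioluminescence were given vehicle, an antibody dilution buffer (3 libraries), or UMBO, which is pulsed ultrasound applied with intravenous microbubbles to open the blood-brain barrier (2 libraries). Sessions took place on days 21 and 24, and the hemisphere was taken 24 h after the last of them. The study's methods describe 1 more mouse, which was not analysed here. All mice carried the same tumor line and none received an immune checkpoint antibody in this experiment. Each hemisphere mixes tumor, brain and immune cells, so that more cells of a type and more RNA per cell cannot be told apart.

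Immunity-related GTPases are large GTP-binding proteins of the cell-autonomous defense against intracellular parasites and bacteria, and interferon gamma is their classical inducer. They fall into 2 subclasses, named for the residues of the nucleotide-binding loop. The GMS proteins Irgm1, Irgm2 and Igtp (also called Irgm3) sit on the cell's own membranes and hold the effectors inactive there. The GKS proteins Iigp1 (Irga6) and Tgtp1 and Tgtp2 (Irgb6) are effectors that load onto the vacuole around a parasite and disrupt it. Interferon gamma acts through its receptor and JAK kinases, whose signal reaches gamma-activated sites (GAS) in promoters, and through IRF1, which binds interferon-stimulated response elements (ISRE).

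The promoters of the family are shown first, because Igtp and Irgm2, and likewise Tgtp1 and Tgtp2, have stretches of almost the same sequence. Whether the promoter sequences bear on the levels in these libraries was not tested. RefSeq promoter windows, 300 bases long from 250 before to 50 after the start on GRCm38.p6, were matched for 5 of the 6 genes. The bases from -110 to -11 before the start are given 5′ to 3′ on the gene's own strand, with matches to the GAS motif TTCNNNGAA and to the ISRE core (GAAA, any 2 bases, GAAA) in capitals.
Igtp (chr11:58199446-58199545, forward strand): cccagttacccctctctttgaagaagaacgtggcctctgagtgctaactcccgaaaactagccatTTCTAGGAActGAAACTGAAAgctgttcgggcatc
Irgm2 (chr11:58214867-58214966, forward strand): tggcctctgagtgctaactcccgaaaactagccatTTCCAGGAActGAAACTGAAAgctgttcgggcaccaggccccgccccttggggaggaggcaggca
Tgtp1 (chr11:48992257-48992356, reverse strand): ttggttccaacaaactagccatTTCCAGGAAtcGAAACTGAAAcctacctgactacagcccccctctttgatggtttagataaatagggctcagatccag
Tgtp2 (chr11:49064223-49064322, reverse strand): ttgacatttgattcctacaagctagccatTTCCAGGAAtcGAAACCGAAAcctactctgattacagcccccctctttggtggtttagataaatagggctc
Irgm1 (chr11:48871431-48871530, reverse strand): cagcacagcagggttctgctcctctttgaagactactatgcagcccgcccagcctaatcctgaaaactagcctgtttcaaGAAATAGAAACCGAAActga

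In Igtp, Irgm2, Tgtp1 and Tgtp2 the GAS match was followed by the ISRE core after 2 bases. The GAS match started 45 bases before the start of Igtp, 75 before that of Irgm2, 88 before that of Tgtp1 and 81 before that of Tgtp2. Irgm1 had no GAS match in its window and 2 overlapping ISRE core matches, starting 30 and 24 bases before the start. Both motifs were searched on both strands. Of 27025 genes with a window, 9.55% had a GAS match, 3.99% an ISRE core match, and 21 genes (0.0777%) a GAS match within 10 bases of an ISRE core match. In 5 of those 21 genes exactly 2 bases lay between the matches. They were the 4 family members above and Gm12185, whose exons share bases with Tgtp1. The pairing of the motifs was looked for after the sequences had been seen. A match describes letters in a window and is not a measured binding site. Aligned against each other, the windows of Igtp and Irgm2 were identical at 91.1% of 271 columns and those of Tgtp1 and Tgtp2 at 91.4% of 162 columns. The stretch that Irgm1 could be aligned on with Igtp was 52 columns long, with 78.8% identical.

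**Figure D1:**
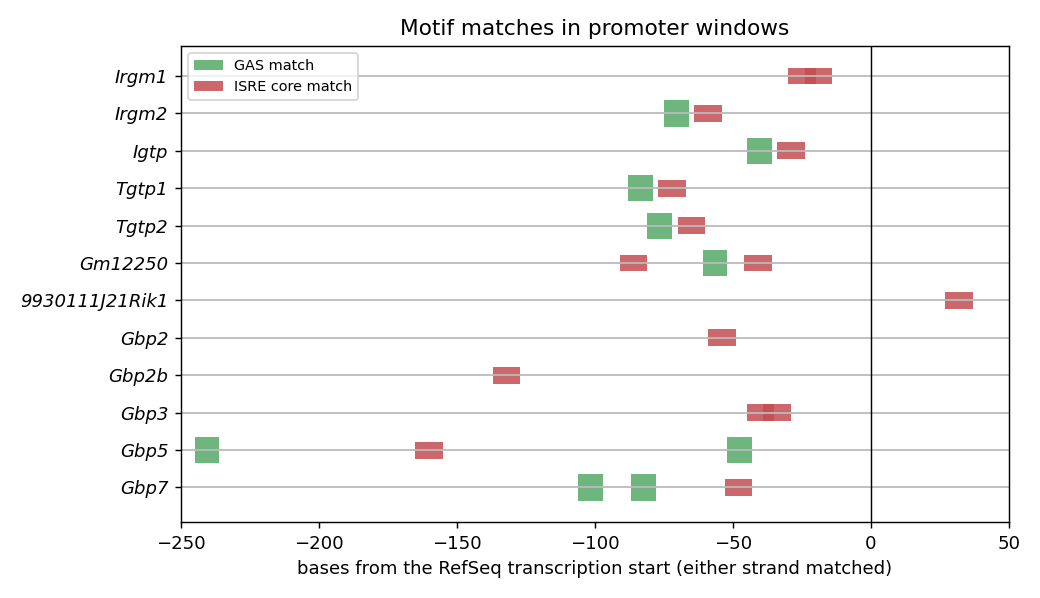
Matches to the GAS motif (green, tall bars) and the ISRE core (red, short bars) on either strand, plotted by distance in bases from the RefSeq start for the family members, other immunity-related GTPase genes and guanylate-binding proteins with a match. In Igtp, Irgm2, Tgtp1 and Tgtp2 the ISRE core starts 2 bases after the GAS match, while the 5 guanylate-binding proteins shown had no pair that close.

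The count tables were deep, with totals from 59736771 to 86164159 reads per library, and the groups were compared over 23592 genes with edgeR's quasi-likelihood test. Snap25 (neurons) lay between 825 and 3214 CPM and Mbp (oligodendrocytes) between 2123 and 2537 CPM (read counts scaled to library size with TMM factors), so both brain cell markers were present. UMBO replicate 2 stood apart: on the largest component of variation, which held 78.7% of the variance, it lay at 133.7, vehicle replicate 2 at 17.0, UMBO replicate 1 at -14.1, and vehicle replicates 3 and 1 at -68.2 and -68.4. Values are therefore also given without that library.

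No group difference was detected for any of the 6 genes. All of them had enough counts to be tested, and 0 of the 6 had an adjusted p under 0.05 (Benjamini-Hochberg, edgeR's quasi-likelihood test), against 0.0% of all genes tested. At an unadjusted p under 0.05, 0 of the 6 were called, against 7.37% of all genes in either direction and 5.3% in the direction of higher with UMBO, and the DESeq2 Wald test called 0 of the 6 after adjustment, against 0.182% of all genes. In 0 of the 6 did both UMBO libraries lie above every vehicle library, a pattern that 11.5% of the genes showed. The log2 fold changes of UMBO over vehicle were above 0 for 6 of the 6, as for 50.9% of all genes, with a median of 1.27 where the median over all genes was 0.01. Without UMBO replicate 2 the sign turned for each of the 6 and their median was -0.21, and 47.5% of all genes were then above 0. With the replicate number as a block, a pairing that the labels do not establish, 5 of the 6 passed after adjustment, against 9.91% of all genes. The 6 genes shared an order of the libraries that ran across the groups, as the values of each gene show.

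Among the GMS regulators, Irgm1 (chromosome 11 of GRCm38, 48861968 to 48871683, reverse strand), which is needed for control of several intracellular pathogens and for normal autophagy, was at 52.0, 203.8 and 55.9 CPM in vehicle replicates 1 to 3, and at 101 and 442 CPM in UMBO replicates 1 and 2. The highest value was in UMBO replicate 2 and the next in vehicle replicate 2, so the groups overlapped. Its mean was 104 ± 86.5 CPM (SD, n = 3) in vehicle mice, and 272 ± 241 CPM (SD, n = 2) after UMBO. The log2 fold change was 1.39 (standard error 0.819) with an adjusted p of 0.497 from edgeR's quasi-likelihood test and a 95% interval from -0.62 to 3.39. This interval holds both no difference and a several-fold higher level.

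Igtp (chromosome 11, 58199556 to 58207591, forward strand), a GTPase of the endoplasmic reticulum and lipid droplets, covered the widest range of the 6 on the log2 scale. It was at 30.7, 195 and 43.1 CPM with vehicle and at 71.8 and 413 CPM with UMBO. UMBO replicate 1 lay below vehicle replicate 2 by a wide margin. The log2 fold change was 1.44 ± 0.996 (standard error), and edgeR gave an adjusted p of 0.508 and a 95% interval from -1.002 to 3.88.

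Irgm2 (chromosome 11, 58199618 to 58222782, forward strand), a regulator found at the Golgi, was at 24.8, 108 and 39.2 CPM with vehicle and at 51.5 and 162 CPM with UMBO. The order of the libraries was that of Irgm1 and Igtp, over a narrower range. Its log2 fold change was 0.90 ± 0.726 (standard error), and edgeR gave an adjusted p of 0.539. The annotated spans of Irgm2 and Igtp overlap on the same strand, where 162 exonic bases are common to both genes, which is 8.01% of the exonic length of Igtp and 4.39% of that of Irgm2. Reads from those bases cannot be assigned to one gene.

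Of the GKS effectors, Iigp1 (chromosome 18, 60376027 to 60392634, forward strand), one of the first GTPases to load onto the Toxoplasma vacuole, was at 23.9, 131.5 and 35.4 CPM with vehicle and at 48.6 and 249 CPM with UMBO. The groups overlapped in the same way. The log2 fold change was 1.23 ± 0.915 (standard error), and edgeR gave an adjusted p of 0.521.

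Tgtp1 (chromosome 11, 48985327 to 48994172, reverse strand) was at 7.11, 27.2 and 7.501 CPM with vehicle and at 12.9 and 56.9 CPM with UMBO. Tgtp2 (chromosome 11, 49057194 to 49064206, reverse strand) was at 6.83, 30.0 and 11.1 CPM with vehicle and at 13.3 and 35.4 CPM with UMBO. These neighboring genes encode near-identical copies of the effector first found in T cells. Of the distinct 100-base windows in their annotated transcripts, 73.2% for Tgtp1 and 76.8% for Tgtp2 also occur in a transcript of another gene, against 0 of the windows of Irgm1 and of Iigp1, so the split of reads between the copies is uncertain. The ratio of Tgtp1 to Tgtp2 was 1.04, 0.907 and 0.675 for vehicle replicates 1 to 3, and 0.967 and 1.61 for UMBO replicates 1 and 2, without separation of the groups. The log2 fold change was 1.32 ± 0.813 (standard error) for Tgtp1 and 0.61 ± 0.696 for Tgtp2, with edgeR adjusted p-values of 0.497 and 0.641. With the counts of both summed as 1 gene, the log2 fold change was 0.99, which also did not pass.

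**Figure D2:**
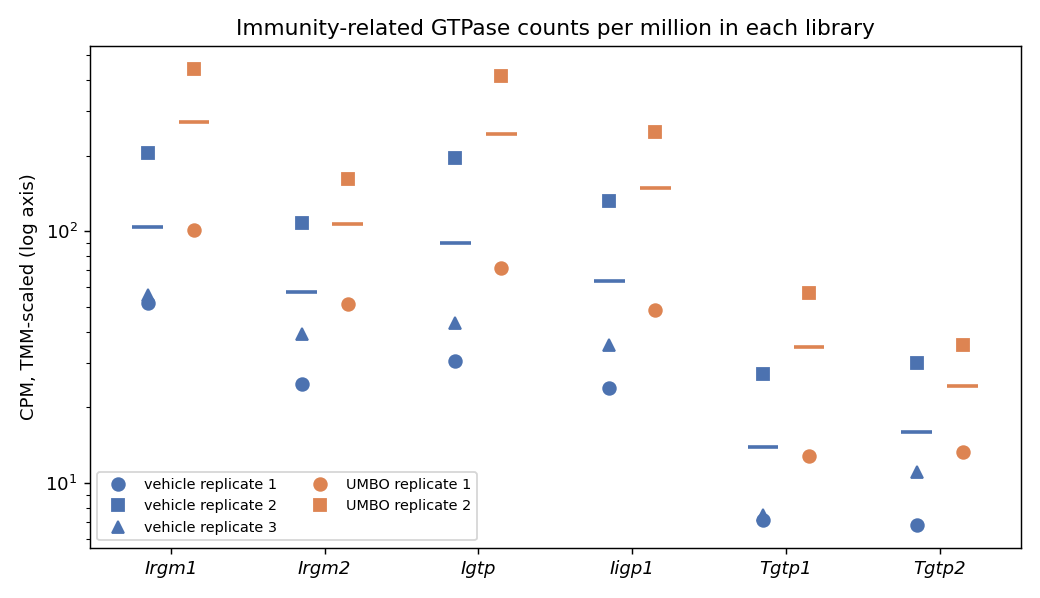
CPM of the 6 immunity-related GTPases on a log axis, with 1 point per library (blue for vehicle, orange for UMBO, marker shape for the replicate number) and a bar at each group mean. In each gene UMBO replicate 2 is highest and vehicle replicate 2 next, with UMBO replicate 1 between vehicle replicate 2 and the other vehicle libraries.

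Each of the 6 genes had the same full order of libraries, from UMBO replicate 2 through vehicle replicate 2, UMBO replicate 1 and vehicle replicate 3 down to vehicle replicate 1. Of all genes tested, 8.24% had this order, which is also the order of the libraries on the largest component of variation. Relative to the mean of the vehicle libraries, the log2 CPM of the 6 genes lay between -1.05 and -0.67 in vehicle replicate 1, between 1.19 and 1.61 in vehicle replicate 2, between -0.59 and -0.24 in vehicle replicate 3, between 0.01 and 0.27 in UMBO replicate 1 and between 1.43 (Tgtp2) and 2.698 (Igtp) in UMBO replicate 2. The spread among the genes was thus small in 4 of the libraries and largest in UMBO replicate 2, where Tgtp2 was lowest and Igtp highest.

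Likeness was measured as the root mean square distance between centred log2 CPM profiles over the 5 libraries, as a description that rests on few points and on 1 library far from the rest. Irgm1 and Tgtp1, of different subclasses, had the closest profiles (0.040), followed by Irgm2 and Tgtp2 (0.137) and by Igtp and Iigp1 (0.160). The genes with similar promoters were farther apart, at 0.403 for Tgtp1 and Tgtp2 and 0.434 for Irgm2 and Igtp. Because the split of reads between Tgtp1 and Tgtp2 is uncertain, so is each distance that involves either of them. The ratio of Igtp to Irgm2 was 1.24, 1.81 and 1.10 with vehicle and 1.39 and 2.55 with UMBO, highest in the 2 libraries with the highest levels of the family. As counted, the subclasses kept close proportions: the GMS genes took 74.0%, 72.9% and 71.9% of the CPM of the 6 genes with vehicle and 75.0% and 74.9% with UMBO, while the sum over the 6 genes went from 145 to 1358 CPM.

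Per kilobase of annotated exon (RPKM, from the same TMM-scaled values), Igtp had the highest level of the family in 5 of 5 libraries. Its mean with vehicle was 44.3 ± 45.2 RPKM (SD, n = 3), with 15.2 RPKM in vehicle replicate 1 and 204 RPKM in UMBO replicate 2. Irgm1 and Irgm2 followed at 17.9 ± 14.9 and 15.5 ± 12.02 RPKM, and changed places in vehicle replicate 3. Iigp1 was at 10.9 ± 10.2 RPKM. Tgtp2 and Tgtp1 were lowest as counted, at 5.44 ± 4.19 and 4.35 ± 3.58 RPKM, and changed places in UMBO replicate 2. The SD over vehicle mice was above the mean for Igtp and below it for the rest. Neighbors in this order differed by less than the larger of their SDs. Within a library the regulators lay above Iigp1 in 5 of 5 libraries, by the least in UMBO replicate 2 with 43.8 RPKM for Irgm2 and 42.7 RPKM for Iigp1. The place of Tgtp1 and Tgtp2 in this order, and the share of the GMS genes, are uncertain, because reads from the sequence they share may not have been counted for either and their levels may be understated.

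The log2 fold change of each gene depended on which library was left out. Without vehicle replicate 2 it lay between 1.48 for Tgtp2 and 2.76 for Igtp. Without UMBO replicate 2 it lay between -0.39 for Iigp1 and -0.04 for Irgm1. The adjusted p of Irgm1 and that of the other 5 genes stayed above 0.05 in these fits.

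**Figure D3:**
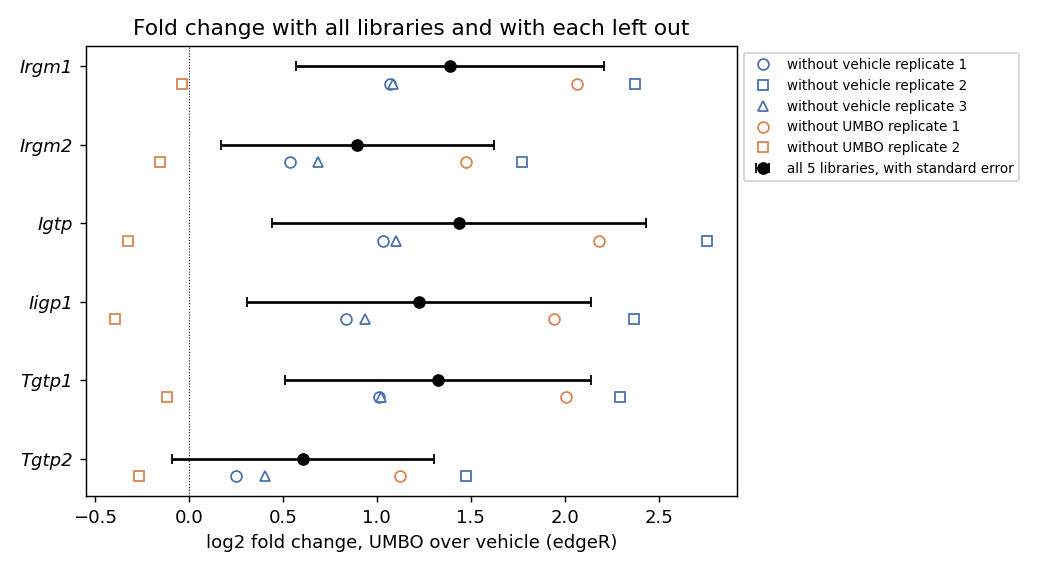
Log2 fold change of UMBO over vehicle for each gene from edgeR, with all 5 libraries (black, bars are 1 standard error) and with 1 library left out (open symbols). The open orange squares, without UMBO replicate 2, lie below 0 for the 6 genes, from -0.39 to -0.04.

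Other genes of the family gave a mixed picture, and 0 of the 10 passed the adjusted threshold in edgeR, against 0.0% of all genes. At an unadjusted p under 0.05, 1 of the 10 was called in edgeR, against 7.37% of all genes. Gm12250 (Irgb10, an effector that acts on bacteria), Gm4951, Gm4841 and Ifi47 (Irgd) had log2 fold changes between 1.23 and 1.56, and UMBO replicate 2 and vehicle replicate 2 were their highest libraries. These turned to -0.16 for Gm12250, -0.25 for Gm4951, -0.28 for Gm4841 and -0.31 for Ifi47 when UMBO replicate 2 was left out. GENCODE M21 lists Gm12250 as a processed pseudogene. Ifi47 went from 9.47 CPM in vehicle replicate 1 to 60.3 CPM in vehicle replicate 2 and 135 CPM in UMBO replicate 2.

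The other 6 did not follow this order. Irgq, which has lost the features of a working GTPase, lay between 53.9 CPM in UMBO replicate 2 and 127 CPM in vehicle replicate 1, with a log2 fold change of -0.55. F830016B08Rik, 9930111J21Rik1 and 9930111J21Rik2 had log2 fold changes of -0.28, -0.35 and -0.36. Irgc1, known from testis, was below 0.2 CPM in each library (0.174 CPM at most), with a log2 fold change of 0.17. Gm5431 was the one gene of the 10 with both UMBO libraries (1.75 and 2.90 CPM) above the vehicle libraries (1.38 CPM at most). Of all genes tested, 11.5% showed that pattern. The log2 fold change of Gm5431 was 1.38, with an edgeR adjusted p of 0.497.

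Of the 15 genes of interferon gamma signaling, 0 passed the adjusted threshold in edgeR, against 0.0% of all genes. At an unadjusted p under 0.05, 1 of the 15 (Ifngr1) was called in edgeR, against 7.37% of all genes. Of the 15, 13 were higher and 2 lower, where 50.9% of all genes were higher. The median log2 fold change of the 15 was 0.73, and -0.07 without UMBO replicate 2. In that fit 4 of the 15 were above 0, against 47.5% of all genes. Ifng, the ligand, made by T cells and NK cells, had 6, 30 and 23 counts with vehicle and 16 and 42 counts with UMBO. Its highest counts were in the same 2 libraries as those of the GTPases, but at this depth its level is known only roughly.

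The receptor and kinase genes varied less than the GTPases. Ifngr1, the ligand-binding chain, was at 17.8 to 25.4 CPM with vehicle and at 26.2 and 40.4 CPM with UMBO, and Ifngr2, the signaling chain, at 44.1 to 53.2 and at 60.7 and 63.8 CPM. Ifngr1 and Ifngr2 were the 2 of the 15 signaling genes with both UMBO libraries above every vehicle library, against 11.5% of all genes tested. Their log2 fold changes were 0.65 ± 0.258 (standard error) and 0.32 ± 0.164, with edgeR adjusted p-values of 0.497. The kinases Jak1 and Jak2 had log2 fold changes of -0.38 and -0.15.

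Of the 15 signaling genes, 7 had the library order of the GTPases, against 8.24% of all genes tested. Irf1 and Socs1 were among the 7. Irf1, a transcription factor, was at 15.9, 72.3 and 20.2 CPM with vehicle and at 32.9 and 159.5 CPM with UMBO. Socs1, the feedback inhibitor of JAK kinases, was at 1.70, 9.61 and 1.75 CPM with vehicle and at 3.60 and 27.1 CPM with UMBO. In both genes UMBO replicate 1 lay below vehicle replicate 2, and the log2 fold changes of 1.41 and 1.82 had edgeR adjusted p-values of 0.497. Without UMBO replicate 2 they were -0.14 for Irf1 and -0.27 for Socs1.

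The guanylate-binding proteins are a second family of interferon-induced GTPases that act at the same vacuoles. Of their 11 genes, 10 had the library order of the immunity-related GTPases, against 8.24% of all genes tested. Their log2 fold changes ranged from 0.52 to 1.23 with a median of 0.92, which was -0.15 without UMBO replicate 2. In edgeR 0 of the 11 passed after adjustment, against 0.0% of all genes. At an unadjusted p under 0.05, 0 of the 11 were called in edgeR, against 7.37% of all genes. Gbp2 was at 33.5, 209.5 and 47.3 CPM with vehicle and at 72.2 and 381 CPM with UMBO. Gbp3 and Gbp4, next in mean level, reached 161 and 132 CPM in UMBO replicate 2 from 21.1 and 14.5 CPM in vehicle replicate 1.

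The 14 genes listed under autophagy conjugation, some of whose products help place the effectors on vacuoles, had a median log2 fold change of 0.03. Of these, 9 were above 0 and 5 below, where 50.9% of all genes were above 0. In edgeR 0 of the 14 passed the threshold, adjusted or unadjusted, against 0.0% and 7.37% of all genes. Gabarapl1, the most abundant, lay between 347 and 592 CPM, Sqstm1, a cargo receptor, between 367 and 456 CPM, and Gabarap between 123 and 256 CPM. Among the 14, 1 gene (Gabarap) had the library order of the GTPases, where 8.24% of all genes tested had it.

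Among the 5 genes beyond the 6 with the profile closest to their mean were Gbp4 (distance 0.047), Gm4951 (0.054), Gm43541 (0.069) and Gm47615 (0.095), where the median distance over 23586 genes was 1.15. Gm43541 and Gm47615 were below 1 CPM in each library, at most 0.596 and 0.840 CPM. Gbp4 was at 14.5, 70.7 and 21.0 CPM with vehicle and at 31.6 and 132 CPM with UMBO. Of the 17 other genes with a GAS match near an ISRE core match, 10 were tested and 3 had the library order of the family, against 8.24% of all genes tested. These were Bst2, Ifitm3 and Gm12185, named after their values were seen. Transcripts of Gm12185 share 100-base windows with those of Tgtp1 and Tgtp2, so its counts may not be independent of theirs. The 17 also hold Gm12250, a gene of the family, which did not have the full order. Bst2, a membrane tether for viruses, went from 10.98 CPM in vehicle replicate 1 to 66.7 CPM in vehicle replicate 2 and 249 CPM in UMBO replicate 2.

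**Figure D4:**
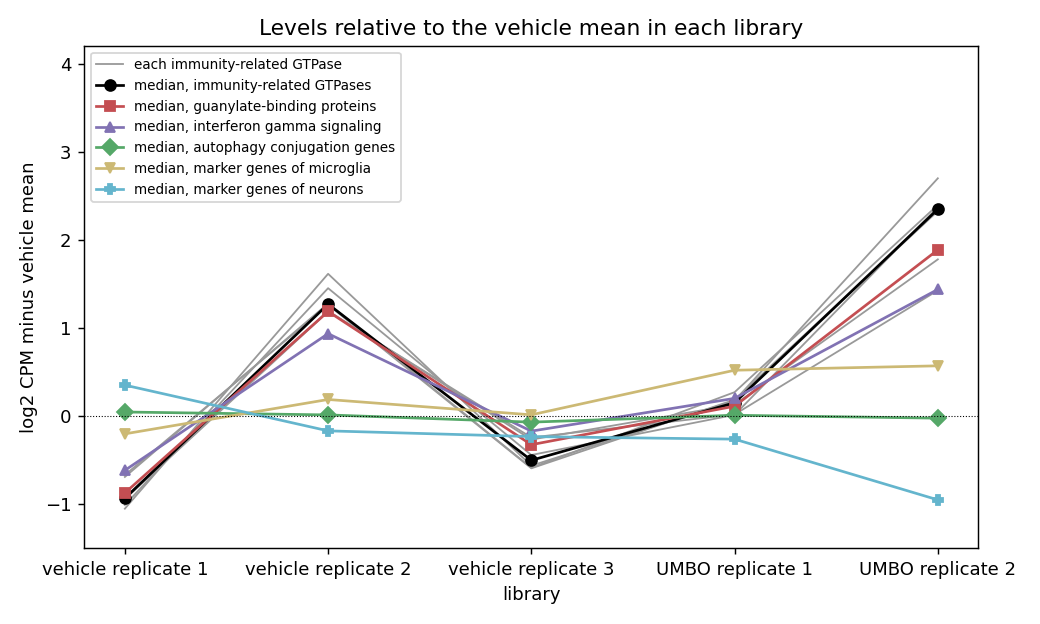
Log2 CPM minus the vehicle mean in each library for the 6 immunity-related GTPases (grey lines) and as medians over gene lists (colored lines with markers). The GTPases and the medians of the guanylate-binding proteins and of the interferon gamma signaling genes are high in vehicle replicate 2 and UMBO replicate 2. Single signaling genes such as Jak1 and Jak2 are lowest in those libraries. The autophagy median lies between -0.07 and 0.05 in each library.

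Markers of other cells differed between the same libraries, and their part in the levels of the GTPases was not tested. The 7 markers of monocytes and macrophages, 0 of them at 0 in every library, summed to 18.6 to 113 CPM with vehicle and to 83.8 and 437 CPM with UMBO, with vehicle replicate 2 and UMBO replicate 2 highest. Their first marker Ly6c2 was at 3.68 CPM in vehicle replicate 2, 1.58 CPM in UMBO replicate 1 and 26.0 CPM in UMBO replicate 2. The library order of the GTPases was found in 4 of the 7, against 8.24% of all genes tested. The 7 had log2 fold changes from 1.39 to 3.18 and 0 passed in edgeR after adjustment, against 0.0% of all genes. Their median log2 fold change was 2.33, and 0.09 without UMBO replicate 2, with 4 of the 7 then above 0, against 47.5% of all genes. At an unadjusted p under 0.05 in edgeR, 3 of the 7 were called, against 7.37% of all genes. So were 5 of 5 proliferation, 3 of 4 endothelial and 3 of 6 microglia markers. The T and NK cell, B cell and astrocyte lists had 1 call each, and the dendritic cell, neuron and oligodendrocyte lists 0.

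The 9 markers of T and NK cells summed to 17.6, 28.3 and 16.9 CPM with vehicle and to 11.1 and 41.7 CPM with UMBO. Of the 9, 2 had the library order of the GTPases, against 8.24% of all genes tested. Cd4 made up much of this sum and was highest in vehicle replicate 1, at 14.6 CPM. Cd3e was at 3.16 CPM in vehicle replicate 2 and 5.74 CPM in UMBO replicate 2, and at most 1.56 CPM elsewhere. The 4 B cell markers summed to at most 1.63 CPM with vehicle and to 1.33 and 4.31 CPM with UMBO. The 5 dendritic cell markers summed to 21.4 to 28.4 CPM with vehicle and to 21.1 and 17.6 CPM with UMBO, and most of this sum came from Flt3 and Zbtb46, both lowest in UMBO replicate 2, at 6.34 and 6.28 CPM. The other 3, Xcr1, Clec9a and Ccr7, were highest in UMBO replicate 2, at 0.733, 0.825 and 3.47 CPM. Markers other than the first of each list were named after their values were seen.

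Resident cells had other patterns. The 6 microglia markers summed to 293 to 424 CPM with vehicle and to 532 and 663 CPM with UMBO. Of the 6, 0 had the library order of the GTPases, against 8.24% of all genes tested. P2ry12 was lowest, at 20.8 CPM, in UMBO replicate 2, where the GTPases were highest. The 4 endothelial markers summed to 55.3 to 84.6 CPM with vehicle and to 112 and 145 CPM with UMBO, with Cldn5 at 38.9 and 57.1 CPM with UMBO and at most 29.5 CPM with vehicle. The 4 astrocyte markers summed to 2512 to 3601 CPM with vehicle and to 4273 and 2598 CPM with UMBO, and its members differed in pattern. Gfap was at 1396 and 1636 CPM with UMBO against at most 515 CPM with vehicle, with an adjusted p of 0.497 in edgeR and of 0.003 in the DESeq2 Wald test. Aqp4 and Slc1a2 were lowest in UMBO replicate 2, at 108 and 765 CPM.

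The 4 oligodendrocyte markers stayed between 4623 and 5532 CPM. The 6 neuron markers summed to 4577 to 7267 CPM with vehicle and to 4745 and 2229 CPM with UMBO, lowest in UMBO replicate 2. The 5 proliferation markers summed to 20.8 to 71.7 CPM with vehicle and to 76.4 and 318 CPM with UMBO, with Mki67 at 20.2 and 51.8 CPM with UMBO against at most 14.2 CPM with vehicle. In UMBO replicate 1 this sum was above that of vehicle replicate 2, whereas the GTPases summed to 300 CPM in UMBO replicate 1 and to 695 CPM in vehicle replicate 2.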

How the data were processed

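Per the labels and the paper's methods, right hemisphere RNA was sequenced and the reads mapped to GRCm38 by the authors with STAR 2.7.2a. The deposited values are raw counts of reads per gene, without normalization. The annotation release and the strand setting of the counting are not given in the sources used here. Groups and replicate numbers came from the sample titles. Ensembl identifiers were paired with symbols from GENCODE M21 for 55394 genes, and the remaining genes held no more than 0.101% of the reads in any library.

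Counts were scaled by TMM, filtered with filterByExpr, and UMBO was compared with vehicle in edgeR 4.0.16 under R 4.3.3 by its quasi-likelihood F test, with Benjamini-Hochberg adjustment over 23592 genes and calls made at 0.05. The common dispersion came to 0.1181. The standard error is the log2 fold change divided by the square root of the F statistic. Log2 CPM used a prior count of 2. RPKM used the merged exon length, which holds the exons of all annotated transcripts. At these depths the spread between mice, not counting error, limits the precision. DESeq2 1.42.0 was an alternative. The scripts were tested on simulated data. Promoter windows are from RefSeq, and no window was used for Iigp1.

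The members and the gene lists were chosen with earlier results of these data known. The genes named were the 6 members, the other family genes, 8 genes of interferon gamma signaling, the 3 most abundant genes of the guanylate-binding protein and autophagy lists, the first marker of each cell type and the 5 closest profiles. Some genes that this rule names are not reported here. Genes named outside this rule are marked or stand as counts of a list.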

Additional observations from a re-analysis of the deposited data

How the results depend on the processing

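Over 11 alternatives for each of the 6 genes, 55 of 66 log2 fold changes kept their direction and stayed short of an adjusted p of 0.05. With 5 libraries and no leave-out they ranged from 0.58 to 1.56. With 1 library left out they ranged from -0.037 to 2.37 for Irgm1, from -0.15 to 1.77 for Irgm2, from -0.32 to 2.76 for Igtp, from -0.39 to 2.37 for Iigp1, from -0.11 to 2.30 for Tgtp1 and from -0.26 to 1.48 for Tgtp2, the lowest without UMBO replicate 2 and the highest without vehicle replicate 2, and their median, 1.27 with all libraries, ranged from -0.21 to 2.33 (without vehicle replicate 2) with 1 library left out.

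With the replicate number as a block, 5 of the 6 passed in edgeR, with log2 fold changes of 1.04 for Irgm1, 0.82 for Irgm2, 1.15 for Igtp, 0.97 for Iigp1 and 0.96 for Tgtp1 and adjusted p-values from 0.005 to 0.0198, and 2337 genes (9.91%) passed. Nothing in the labels ties a number to a shared litter or day. Deviations from the group means correlated at 0.453 for replicate 1 and 0.760 for replicate 2, but with 2 UMBO libraries one deviation is always the mirror image of the other, and pairs are not established.

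Genes past an adjusted p of 0.05 numbered 0 in edgeR and 42 with the DESeq2 Wald test, and with 1 library left out from 0 to 4543 (without UMBO replicate 1). At an unadjusted p they numbered 1738, then 4100 without a filter (40435 genes tested), 2639 with DESeq2, 6134 with the block, and from 296 (without vehicle replicate 1) to 10165 (without UMBO replicate 1) with 1 library left out. Without vehicle replicates 2 and 3 and UMBO replicate 2 they numbered 2674, 432 and 455. Where no construction shows it, the cause was not tested. A lone UMBO library was assumed to vary like the vehicle libraries.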
